A study of Mus musculus with 4 samples.

Results

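The genes described here are 10 core and primed pluripotency genes of the mouse: Pou5f1, Sox2, Fgf5, Otx2, Pou3f1, Fgf4, Utf1, Lin28a, Lin28b and Sall4. They were taken by symbol from the deposited expression table. The rule uses no measured value, although the symbols were picked with earlier results of these data known. All 10 were found among the 25965 genes listed. All 10 also had a mean level over the libraries of at least 0 log2 CPM (log2 of the reads of a gene scaled to the library total), as did 13264 genes in all, and this minimum was used for every comparison with other genes.

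RNA-seq was performed on 4 libraries of female mouse embryonic stem cells (mESCs), F1 offspring of FVB/NJ dams and CAST/EiJ sires. The day 0 library came from undifferentiated cells kept in 2i, a medium with inhibitors of MEK and GSK3. The other 3 came from day 6 of differentiation, which was induced by moving the cells stepwise out of 2i into a serum medium called DME HiHi. The day 6 cells had been transduced with retroviral hairpins on day 2 and put under puromycin on day 3, and they carried either the non-silencing hairpin Nons or 1 of 2 hairpins against Smarca4, named Smarca4.4 and Smarca4.6. Titles decided the groups. The genotype field marks all 3 day 6 libraries, that of Nons included, as Smarcc knockdown, and marks day 0 as a non-silencing control although the title names no hairpin. Each group held 1 library. There were no replicates, hence no replicate error, and no test was made. The 95% intervals given are exact (Clopper-Pearson) and cover counting error in 2 libraries only. They do not compare 2 conditions, and the day 0 cells differ from the others in time, medium, virus and drug at once.

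Pluripotent cells of the embryo pass from a naive state, that of the inner cell mass, through a formative state to a primed state, that of the epiblast just before gastrulation. Pou5f1 (OCT4) and Sox2 bind DNA together and hold the network of genes that keeps cells pluripotent, while Otx2 and Pou3f1 (OCT6) redirect that network as cells leave the naive state. Fgf4 is the ligand by which mESCs stimulate the ERK pathway in themselves and so become ready to differentiate, and Fgf5 is the classical marker of the early postimplantation epiblast. Lin28a and Lin28b encode RNA-binding proteins that block the maturation of the let-7 microRNAs, and let-7 in turn represses Lin28a and Lin28b, so that the pair acts as a switch.

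The hairpins are shown first because every comparison at day 6 rests on them. The guide strands, as designed by the study, are printed 5′ to 3′ with the seed (bases 2 to 8) in capitals.
Nons guide: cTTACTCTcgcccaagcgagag
Smarca4.4 guide: tTTATTACtgtctgactccagt
Smarca4.6 guide: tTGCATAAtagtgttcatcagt
The reverse complement of the Nons guide was found in 0 transcripts of the mouse annotation (GENCODE M21, GRCm38, the assembly also called mm10). That of Smarca4.4 matched only Smarca4, at chr9:21703327-21703348 on the plus strand, in the 3′ UTR within exon 34 of 34. That of Smarca4.6 also matched only Smarca4, at chr9:21670504-21670525, in the coding part of exon 22.

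The let-7 microRNA and its matches in 4 of the 10 genes are shown because let-7 represses Lin28a and Lin28b, and Fgf4 and Sall4 hold matches to the same seed. The mature let-7a is from RefSeq (GRCm38.p6), with its seed in capitals. The transcript windows are read 5′ to 3′ from the longest coding transcript of each gene, and the capitals mark CTACCTC, the complement of the seed.
let-7a: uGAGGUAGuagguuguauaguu
Lin28a chr4:134005190-134005196: ctgttgaaCTACCTCatttttg
Lin28a chr4:134004552-134004558: ccacaaacCTACCTCactgtgt
Lin28b chr10:45381023-45381029: cgggaagtCTACCTCatgcaag
Lin28b chr10:45378649-45378655: gttagtaaCTACCTCtgagttt
Lin28b chr10:45378477-45378483: gcacatggCTACCTCccagcta
Lin28b chr10:45377061-45377067: ggcaccgaCTACCTCttcaatc
Sall4 chr2:168748941-168748947: taatttatCTACCTCaattatc
Fgf4 chr7:144863874-144863880: atccccatCTACCTCagagttc
The coordinates are those of the 7 capital letters, in mm10, on the minus strand for Lin28a, Lin28b and Sall4 and the plus strand for Fgf4. All 8 windows lie in a 3′ UTR, in the last exon of the gene. Lin28a had 2 matches in its 3′ UTR and Lin28b had 4, with 1 more in its coding sequence. Sall4 had 1 in the 3′ UTR and 3 in its coding sequence, and the other 6 members had 0 anywhere in the transcript. Over 19164 genes, 8.91% held at least 1 match in the 3′ UTR and 1.1% at least 2. Only the transcribed strand was searched, and a match is a run of letters, not a measured target site. MicroRNA levels were not analysed here.

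A last sequence is shown because it joins 3 of the members. Fgf4 is a known target of SOX2 and OCT4 through an enhancer downstream of its coding sequence, and a SOX site followed by an octamer-like POU site was found in the 3′ UTR in exon 3 of Fgf4, at chr7:144864394-144864411 on the plus strand. Capitals mark the SOX and the POU parts, 4 bases apart.
Fgf4 SOX-POU composite: aactCTTTGTttggATGCTAATggga
This composite, with 0 to 5 bases between its parts, was present in the longest coding transcript of 11 of 19164 genes (0.0574%), and in none of the other members, again with the transcribed strand alone searched. The pattern took A or T at a base of each part, and so admits the Fgf4 form. Its presence in Fgf4 is thus an illustration and not a test. Sequence outside these transcripts was not searched, so absence from the other members says nothing of their enhancers.

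The libraries held between 18599402 reads (day 0) and 47143738 reads (Smarca4.4), with 45759793 with Nons and 36495575 with Smarca4.6. Counts of 3 reads or fewer were taken as at or under the floor. A count of 3 reads corresponds to 0.161 CPM at day 0 and to between 0.0636 and 0.0822 CPM at day 6. Smarca4, an ATPase of the BAF remodelling complex and the gene both hairpins target, had a level of 7.93 log2 CPM at day 0, 7.84 with Nons, 7.04 with Smarca4.4 and 7.44 with Smarca4.6. It was at 57.3% of the Nons level with Smarca4.4 and at 75.8% with Smarca4.6, so the reduction was partial and unequal. At day 0 the 8 embryonic stem cell markers examined, Nanog and Esrrb among them, summed to 3506 CPM against 127, 118 and 105 CPM with Nons, with Smarca4.4 and with Smarca4.6. The libraries are labelled female, yet 3 of the 4 Y-linked genes examined had reads at day 6 and none had any at day 0: Ddx3y had 0, 83, 96 and 107 reads at day 0 and with Nons, Smarca4.4, then Smarca4.6. Day 0 is thus a library apart in this respect, and since it is the only one of its kind no comparison with day 0 could be repeated without it.

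The 10 genes did not change as a block between day 0 and Nons day 6. Pou5f1 kept its level within 1.26-fold while Sox2 was 9.88-fold lower, and Fgf5, Pou3f1 and Lin28a, which mark or accompany the later pluripotent states, were 453-fold, 43.7-fold and 11.7-fold higher. The plot of levels by gene and library shows this spread, and Pou5f1 at day 0 lies inside the range of its 3 day 6 libraries. For Lin28b the range of the day 6 libraries, from 5.61 to 6.27, is nearly as wide as the gap of 0.78 between day 0 and Nons. In all, 5 of the 10 members were at least 2-fold higher in Nons, where 19.6% of the 13264 genes kept were, and 3 were at least 2-fold lower, against 12.3%. The median difference of the 10 was 1.16 on the log2 scale, against 0.031 over all genes kept, and their median absolute difference was 2.00 against 0.60. These are bulk cells, so fewer cells that express a gene and less RNA of that gene in each cell cannot be told apart.

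**Figure D1:**
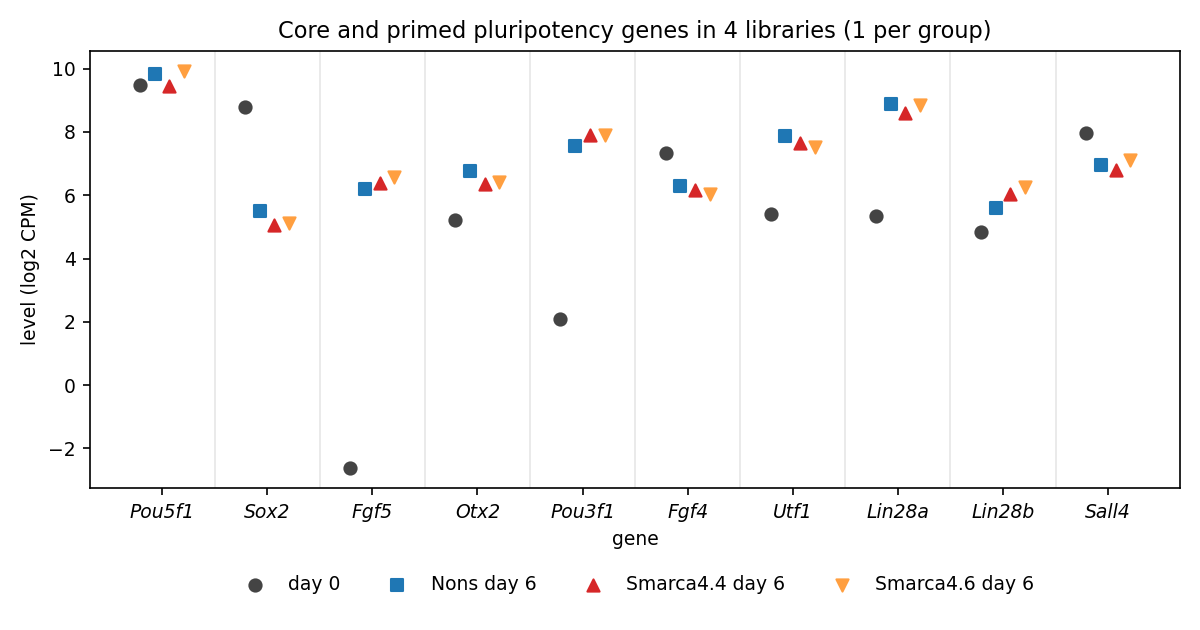
Level (log2 CPM, vertical axis) of each of the 10 genes (horizontal axis) in the 4 libraries, 1 point per library and 1 library per group, so there are no error bars. Fgf5 runs from -2.63 at day 0 to 6.59 with Smarca4.6, whereas Pou5f1 stays between 9.45 and 9.94.

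Of the core factors, Pou5f1 (chromosome 17, 35506037 to 35510776, plus strand) had a level of 9.50 log2 CPM at day 0, 9.84 with Nons, 9.45 with Smarca4.4 and 9.94 with Smarca4.6. It was higher in Nons than at day 0 by 0.34 (95% interval 0.31 to 0.37), and 68.5% of all genes kept differed by more. Pou5f1 also ranked 1 of the 10 members per kilobase of exon in every library, at 322, 407, 312 and 437 CPM per kilobase in the same order.

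Sox2 (chromosome 3, 34650005 to 34652461, plus strand) had a level of 8.80 log2 CPM at day 0, 5.49 with Nons, 5.06 with Smarca4.4 and 5.11 with Smarca4.6, so that day 0 stood far above all 3 day 6 libraries. The difference between Nons and day 0 was -3.30 (-3.37 to -3.23), which left 10.1% of the day 0 level, and 188 of the 13264 genes were lower by more. Sox2 ranked 2 of the 10 members per kilobase at day 0 and 9 in each day 6 library. Pou5f1 and Sox2, whose proteins bind side by side, therefore came apart: the level of Pou5f1 per kilobase was 1.49 times that of Sox2 at day 0, and 18.6, 19.3 and 26.0 times with Nons, with Smarca4.4 and with Smarca4.6.

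Sall4 (chromosome 2, 168748332 to 168767943, minus strand), a zinc finger factor that supports Pou5f1 in stem cells and remains on in germ cells, had a level of 7.96 log2 CPM at day 0 and of 6.94, 6.81 and 7.12 with Nons, with Smarca4.4 and with Smarca4.6. It was lower in Nons than at day 0 by a difference of -1.02 (-1.07 to -0.96). That interval includes a 2-fold difference, so whether Sall4 lies inside or outside the 2-fold limit is within counting error.

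Utf1 (chromosome 7, 139943789 to 139945112, plus strand), a chromatin-bound factor of undifferentiated cells and itself a classical target of OCT4 and SOX2, moved the other way. Its level was 5.40 log2 CPM at day 0 and 7.86, 7.65 and 7.54 with Nons, with Smarca4.4 and with Smarca4.6, a difference of 2.46 (2.35 to 2.56) between Nons and day 0. Per kilobase it passed from rank 5 at day 0 to rank 2 in all 3 day 6 libraries, behind Pou5f1 alone.

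The ligands changed places. Fgf4 (chromosome 7, 144861386 to 144865243, plus strand) had a level of 7.33 log2 CPM at day 0, 6.30 with Nons, 6.15 with Smarca4.4 and 6.03 with Smarca4.6. The difference between Nons and day 0 was -1.03 (-1.10 to -0.96), again with 2-fold inside the interval.

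Fgf5 (chromosome 5, 98254184 to 98277030, plus strand) had 3 reads at day 0 and 3342, 3916 and 3504 reads with Nons, with Smarca4.4 and with Smarca4.6, or levels of -2.63, 6.19, 6.38 and 6.59 log2 CPM. The ratio of Nons to day 0 was 453 (95% interval 155 to 2197), and the width of that interval comes from the 3 reads, a count at the floor. In log2 terms the difference was 8.82, exceeded by 27 of the 13264 genes. Per kilobase, Fgf4 stood 783 times above Fgf5 at day 0, whereas Fgf5 stood 1.18, 1.49 and 1.88 times above Fgf4 with Nons, with Smarca4.4 and with Smarca4.6.

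Among the factors that redirect the network, Pou3f1 (chromosome 4, 124657646 to 124660655, plus strand) had 80 reads at day 0 and between 8597 and 11420 at day 6. Its levels were 2.10 log2 CPM at day 0, 7.55 with Nons, 7.92 with Smarca4.4 and 7.91 with Smarca4.6, and the difference between Nons and day 0 was 5.45 (5.13 to 5.79). Otx2 (chromosome 14, 48657679 to 48667644, minus strand), which in the embryo is needed for the forebrain and anterior epiblast, was already present at day 0 and differed less. Its levels were 5.22, 6.76, 6.34 and 6.41 log2 CPM at day 0 and with Nons, Smarca4.4, then Smarca4.6, with a difference of 1.54 (1.43 to 1.66) between Nons and day 0. Thus Pou3f1 was near the bottom of the set at day 0, at rank 9 of 10 per kilobase, and at rank 4 in each day 6 library.

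The RNA-binding pair also diverged. Lin28a (chromosome 4, 134003330 to 134018841, minus strand) had a level of 5.34 log2 CPM at day 0 and 8.89, 8.60 and 8.84 with Nons, with Smarca4.4 and with Smarca4.6, with a difference of 3.55 (3.45 to 3.66) between Nons and day 0. Lin28b (chromosome 10, 45376620 to 45470201, minus strand) had 4.82 at day 0 and 5.61, 6.04 and 6.27 log2 CPM, with a difference of 0.78 (0.65 to 0.92). Lin28b therefore differed less than its paralogue in this comparison. Per kilobase Lin28a stood 3.24 times above Lin28b at day 0, 22.1 times in Nons, 13.4 times with Smarca4.4 and 13.5 times with Smarca4.6.

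**Figure D2:**
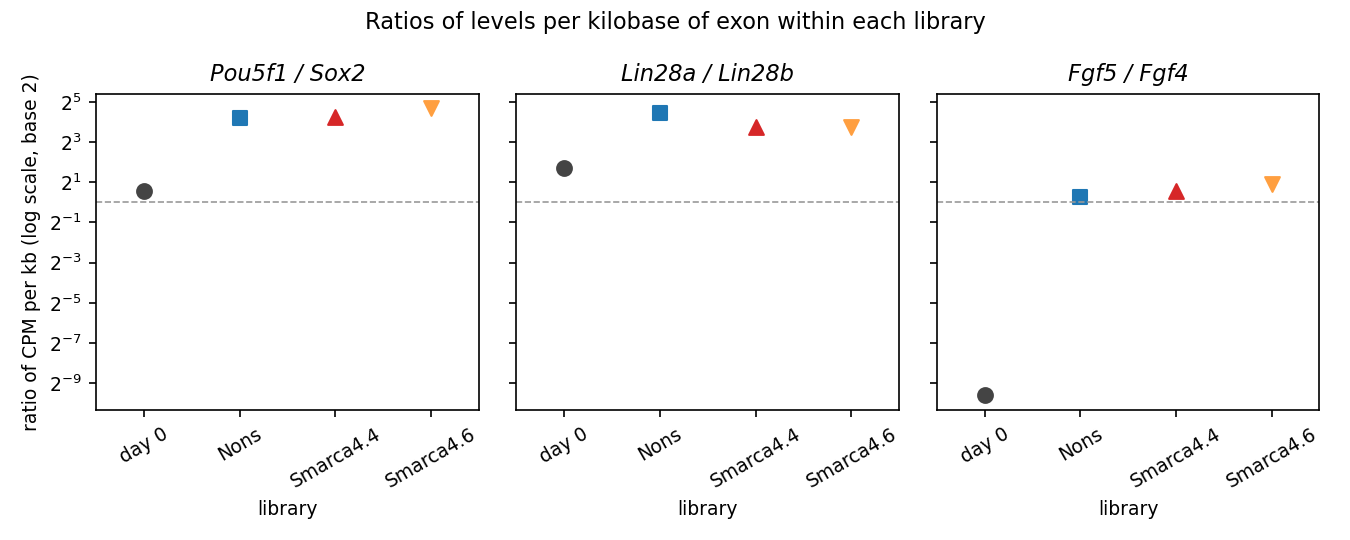
Ratio of the levels per kilobase of exon of 3 pairs of genes (vertical axis, log scale of base 2) in each library (horizontal axis), 1 point per library, with the dashed line at equal levels. Pou5f1 over Sox2 and Lin28a over Lin28b are above 1 in all 4 libraries and higher at day 6 than at day 0, and Fgf5 over Fgf4 crosses 1, resting on 3 reads of Fgf5 at day 0.

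These ratios use the union of exons of each gene in GENCODE M21. For Pou3f1 that length, 3849 bases, exceeds the 3010 bases that the deposited table gives the gene, and limiting the length to that span changed 0 of the ranks. The size of the ratios does depend on the length used. Per kilobase of the longest coding transcript, Pou5f1 stood at 532 CPM at day 0 and 672 in Nons, while Sox2 stayed at 216 and 21.9. Lin28a stood at 11.5 and 135 in the same order, against 5.25 and 9.03 for Lin28b, so the ratio of that pair is lower by this length. The ranks given above for Pou5f1, Sox2, Utf1 and Pou3f1 stayed the same. Those of Otx2, Fgf4, Fgf5, Sall4 and Lin28a each moved in some library. Otx2, for example, ranked 6 in place of 8 with Smarca4.4, and Fgf5 6 in place of 5 in Nons. Some members overlap other genes. Gm19553 lies within Pou5f1 on the opposite strand and had 20.0%, 19.7%, 20.2% and 20.4% as many reads as Pou5f1 at day 0 and with Nons, Smarca4.4, then Smarca4.6. Gm13061 in Lin28a and Gm14261 in Sall4 are also on the opposite strand, with at most 2.12% and 3.84% of the reads of those genes in any library, and Sox2ot runs over Sox2 on the same strand with at most 1.89%. The strand setting of the counting was not given in the sources used here, so the levels of these genes, and of Gm19553 above all, are uncertain to that extent.

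At day 6, the question was whether depletion of Smarca4 changes the level of these genes. No member differed from Nons by 2-fold with either hairpin, and the size of the differences with counting intervals is plotted beside that of Smarca4. Lin28b stood highest above Nons of the members with each hairpin, at 1.35-fold with Smarca4.4 and 1.58-fold with Smarca4.6. Sox2 stood lowest below Nons with each hairpin, at 74.0% and 76.7% of its Nons level, and Otx2 was next, at 74.7% with Smarca4.4 and 78.2% with Smarca4.6. Both comparisons share the Nons library, so a value of Nons that is off by chance would move both the same way.

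At the 2-fold limit 0 of the 10 members differed with Smarca4.4, where 1.19% of all genes kept did, and 0 with Smarca4.6, where 1.82% did. At a limit of 1.25-fold, 2 members were higher with Smarca4.4 (12.9% of all genes kept were) and 3 were lower (9.51%). With Smarca4.6, 3 were higher (18.8%) and 2 were lower (11.8%), and Utf1 fell just outside, at 80.0% of Nons. The median absolute difference of the 10 from Nons was 0.33 with Smarca4.4 and 0.34 with Smarca4.6, against 0.17 and 0.21 over all genes kept. The median signed difference was -0.18 with Smarca4.4 and 0.024 with Smarca4.6, against 0.038 and 0.064.

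**Figure D3:**
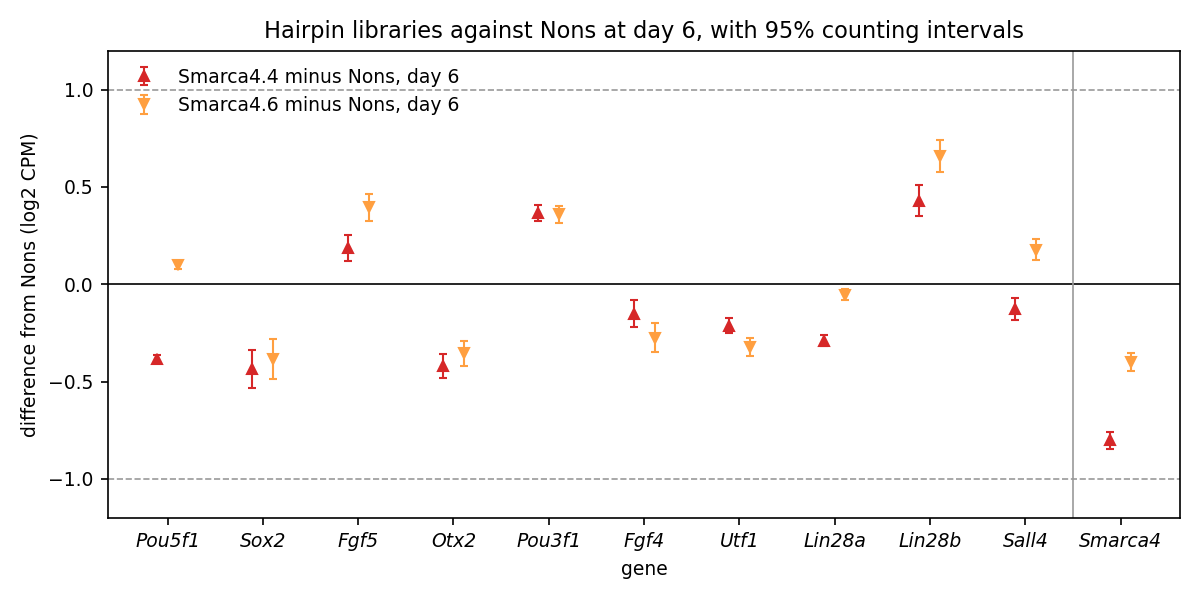
Difference from Nons (log2 CPM, vertical axis) of each of the 10 genes and of Smarca4 (horizontal axis) with Smarca4.4 (upward triangles) and Smarca4.6 (downward triangles) at day 6, with bars for the 95% counting interval, a solid line at no difference and dashed lines at 2-fold. All 20 member values lie between the dashed lines, from -0.44 for Sox2 to 0.66 for Lin28b, and Smarca4 lies at -0.80 and -0.40.

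The core factors did not share a direction. Sox2 differed from Nons by -0.44 (-0.53 to -0.34) with Smarca4.4 and by -0.38 (-0.48 to -0.28) with Smarca4.6, so it lay further below its day 0 level in both than in Nons. These steps are small beside its difference of -3.30 between Nons and day 0, at 13.2% and 11.6% of its size. Pou5f1 differed by -0.38 (-0.41 to -0.36) with Smarca4.4 and by 0.10 (0.081 to 0.12) with Smarca4.6. Sall4 also lay on opposite sides of Nons, at -0.13 (-0.18 to -0.072) and 0.18 (0.12 to 0.23). Utf1 was lower than Nons in both, by -0.21 (-0.25 to -0.17) and -0.32 (-0.37 to -0.28).

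The ligands again went apart, to a smaller extent. Fgf5 was higher than Nons, with differences of 0.19 (0.12 to 0.25) with Smarca4.4 and 0.39 (0.33 to 0.46) with Smarca4.6. Fgf4 was lower, with differences of -0.15 (-0.22 to -0.082) and -0.27 (-0.35 to -0.20). With both hairpins Sox2, Fgf4, Fgf5, Pou3f1 and Lin28b thus stood further from day 0 than Nons did, Otx2, Utf1 and Lin28a stood closer to it, and Pou5f1 and Sall4 differed between the hairpins in this.

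The pair of formative transcription factors split in a way that both hairpins show. Pou3f1 was higher than Nons by 0.37 (0.33 to 0.41) with Smarca4.4 and by 0.36 (0.32 to 0.40) with Smarca4.6. Otx2 was lower, with differences of -0.42 (-0.48 to -0.36) and -0.35 (-0.42 to -0.29). Neither gene could be told apart between the hairpins, with differences between Smarca4.4 and Smarca4.6 of 0.0070 (-0.033 to 0.047) for Pou3f1 and -0.066 (-0.13 to 0.0025) for Otx2.

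The LIN28 pair split too. Lin28b differed from Nons by 0.43 (0.35 to 0.51) with Smarca4.4 and by 0.66 (0.58 to 0.74) with Smarca4.6, and 1029 and 552 of the 13264 genes were higher by more. These differences are 54.7% and 84.1% as large as that between Nons and day 0. Lin28a was lower, with differences of -0.29 (-0.32 to -0.26) and -0.053 (-0.082 to -0.024), and the second of these is among the smallest of the set.

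The hairpin libraries were also compared with each other, since this is the only measure of how far apart a pair of knockdown libraries lies. Pou5f1 was the member that differed most, with a difference of -0.49 (-0.51 to -0.46) between Smarca4.4 and Smarca4.6, which is more than its difference between Nons and day 0. It was the only member past 1.25-fold in that comparison, at 71.4% of its Smarca4.6 level, while 17.8% of all genes kept were past it. Sall4 followed at -0.30 (-0.36 to -0.25), then Lin28a at -0.24 (-0.27 to -0.21), Lin28b at -0.23 (-0.30 to -0.16) and Fgf5 at -0.21 (-0.28 to -0.14). Fgf4 and Utf1 were slightly higher with Smarca4.4, by 0.12 (0.047 to 0.20) and 0.11 (0.065 to 0.16). The intervals of Sox2, -0.053 (-0.16 to 0.055), Otx2 and Pou3f1 included 0. The median absolute difference of the 10 between the hairpins was 0.17, against 0.14 over all genes kept.

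**Figure D4:**
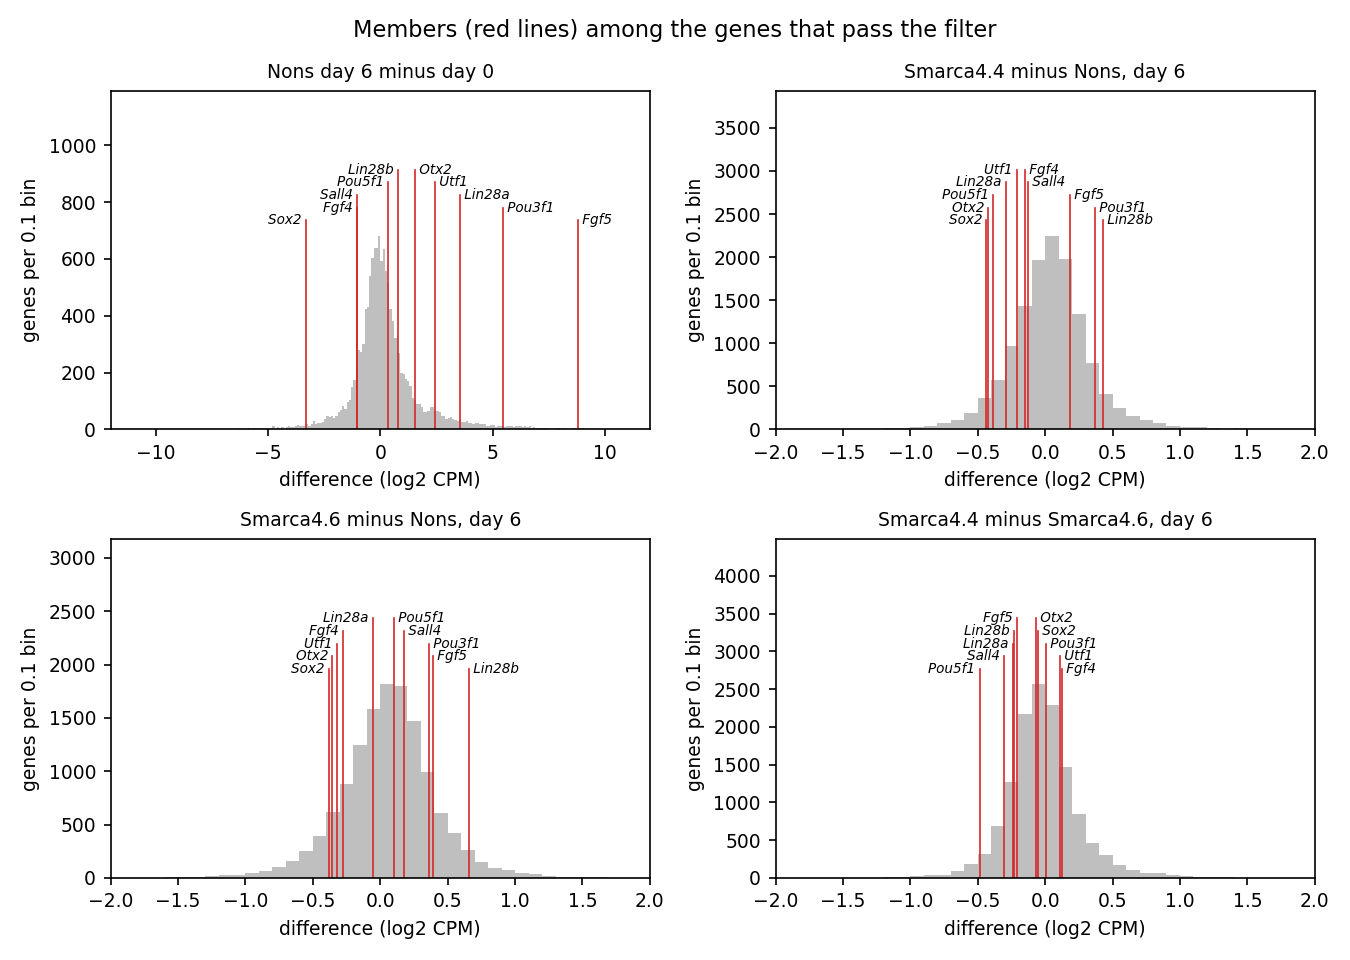
Number of genes (vertical axis, in bins of 0.1) by difference in log2 CPM (horizontal axis) for the 13264 genes kept in each of the 4 comparisons, with a red line at each of the 10 members. The day 6 panels leave out the 2, 10 and 3 genes beyond a difference of 2, and the lines of Fgf5 and Pou3f1 lie far to the right between day 0 and Nons whereas at day 6 all lines lie within the body of genes.

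To see which genes had profiles most like those of the members, the Euclidean distance between log2 CPM profiles over the 4 libraries, each centred on its own mean, was taken to the other 13263 genes. For Sox2 the nearest were Triml2, Fn1 and Gm514, at distances of 0.15, 0.15 and 0.16, and 43 genes lay within 0.5. Fn1, which encodes fibronectin, had a level of 10.39 log2 CPM at day 0 and 7.29, 6.82 and 6.83 at day 6. For Fgf5 the nearest were Fndc3c1, Mal2 and Gap43, at 0.28 to 0.30, and 9 genes lay within 0.5. These 3 genes had 7, 0 and 1 reads at day 0. For Otx2 they were the cell cycle inhibitor Cdkn1b, Tspan18 and Rhobtb1, at 0.015 to 0.041, among 979 genes within 0.5. Lin28b had Mup6, Lmo2 and Per2 nearest, at 0.075 to 0.10, among 637, and those 3 genes had at most 94 reads in any library. For Pou5f1 the nearest was the overlapping Gm19553, at 0.037, and 3547 genes lay within 0.5, since a flat profile is common. With 4 libraries such likeness is a description only.

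The genes that act with the members were read from lists. For every list count below, the shares over all genes kept are those given above. Between day 0 and Nons, 19.6% were at least 2-fold higher and 12.3% at least 2-fold lower. Against Nons, 1.19% were past 2-fold with Smarca4.4 and 1.82% with Smarca4.6. Of 17 partner genes of the formative and primed states, 5 were at least 2-fold higher in Nons than at day 0 and 5 at least 2-fold lower, with a median difference of -0.27, so this list was mixed where Fgf5 and Pou3f1 were high. Etv4, an ETS factor induced by FGF signalling, was higher by 4.33 on the log2 scale, Dnmt3b, a de novo DNA methyltransferase, by 2.66, and Grhl2, an epithelial factor, by 2.59. Lefty2, an inhibitor of Nodal, was lower, at -2.90. Against Nons, 0 of the 17 were past 2-fold with Smarca4.4 and 1 with Smarca4.6, the kinase gene Pim2, which had differences of 0.95 and 1.80.

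Among 16 partner genes of the core network, 7 were at least 2-fold lower in Nons than at day 0 and 1 higher, with a median of -0.93. The largest differences were those of Nr0b1 (-6.99), Esrrb (-5.75), Nanog (-4.04) and Dppa5a (-3.02), all of them larger than that of Sall4, and the first 3 larger than that of Sox2. With the hairpins 0 of the 16 were past 2-fold with Smarca4.4 and 1 with Smarca4.6, Mycn, at 1.07. Nanog, which acts with Pou5f1 and Sox2, differed from Nons by -0.36 and -0.39.

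Of the 13 paralogues of the members, 7 passed the minimum level, 2 of them at least 2-fold higher and 3 at least 2-fold lower in Nons than at day 0. Sall2 was higher by 3.25, whereas Sall3 (-5.66) and Sall1 (-1.55) were lower, as was Sox15 (-1.61). Against Nons 0 of the 7 were past 2-fold with either hairpin. Sox1 and Otx1, which did not pass, were more than 2-fold above Nons with both hairpins, but on few reads: Sox1 had 9 with Nons, 140 with Smarca4.4 and 30 with Smarca4.6, and Otx1 had 9, 30 and 15.

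In the FGF pathway, 11 of 12 receptors, ligands and adaptors passed, 3 of them at least 2-fold higher and 2 lower in Nons than at day 0, with a median of 0.44. Fgf15 (3.82) and Fgf8 (2.63) were higher and Fgf3 (-2.30) and the receptor gene Fgfr3 (-1.97) lower. Fgf8 had 5 reads at day 0 and 76, 45 and 190 with Nons, with Smarca4.4 and with Smarca4.6, and its differences from Nons, -0.80 and 1.65, had opposite signs. No other gene of this list was past 2-fold with a hairpin.

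Of the 12 genes of the LIN28 and let-7 pathway that were found, 1 was at least 2-fold lower in Nons than at day 0, Mycn (-1.93), and 0 were higher, with a median of -0.28. Dgcr8, which helps to cut primary microRNAs, was at -0.93, the RNA-binding Igf2bp2 at -0.66 and the exonuclease gene Dis3l2 at -0.61. Lin28a itself, at 3.55, differed by more than any of the 12. Against Nons the pathway ranged from -0.44 to 0.44 with Smarca4.4 and from -0.43 to 1.07 with Smarca4.6.

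**Figure D5:**
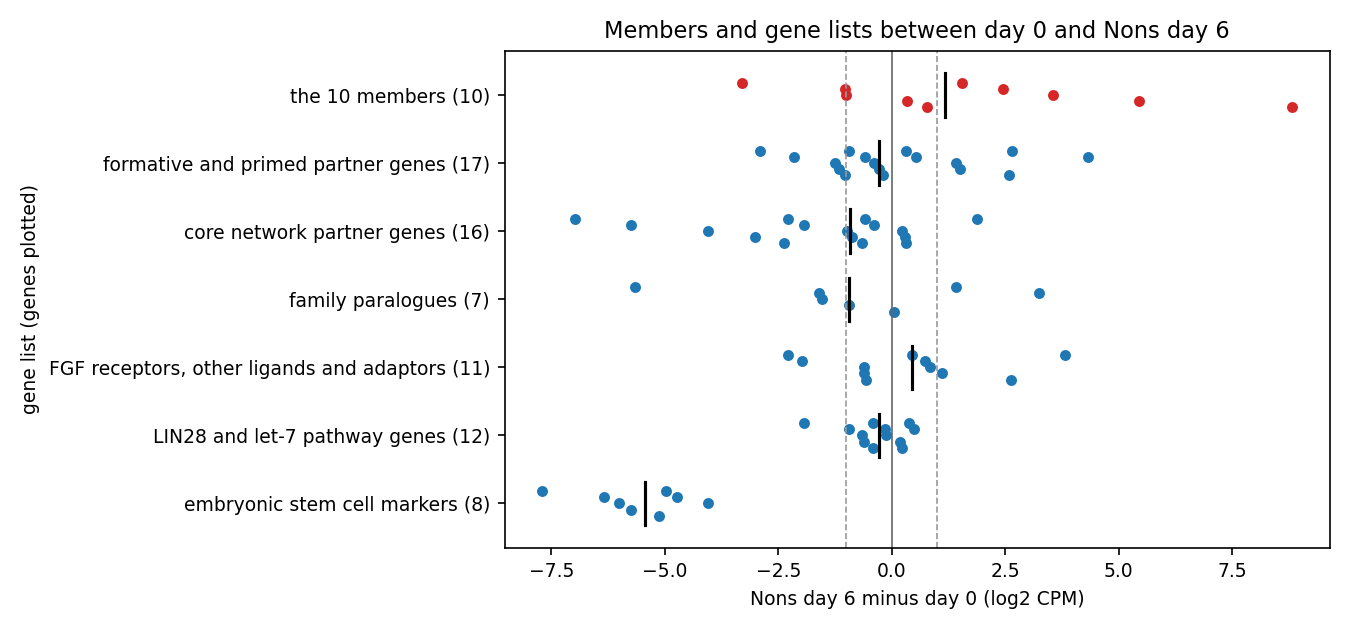
Difference in log2 CPM between Nons day 6 and day 0 (horizontal axis) for the 10 members (red) and for the genes of 6 lists that passed the minimum level (blue, number of genes in brackets), 1 point per gene, with the median as a black bar and dashed lines at 2-fold. The members spread from -3.30 to 8.82, while the 8 embryonic stem cell markers all lie at -4.04 or below.

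Several members are also expressed outside pluripotent cells, Sox2, Otx2 and Pou3f1 in neural tissue and Sall4 and Lin28a in germ cells, so markers of other cell types were read beside them. Of 12 neural markers found, 3 passed, and the list summed to 169 CPM at day 0 and to 446, 442 and 482 CPM with Nons, with Smarca4.4 and with Smarca4.6. Most of the day 6 sum was Nes, which is not limited to neural cells, at 17377 reads in Nons. Pax6 and Tubb3 were lower in Nons than at day 0, at -0.85 and -0.94. Both were higher with the hairpins than with Nons, Pax6 by 0.62 and 0.60 and Tubb3 by 0.43 and 0.61. Nes was not, with differences of -0.12 (-0.15 to -0.093) and 0.0027 (-0.030 to 0.035). The median of the 3 genes was 0.43 with Smarca4.4 and 0.60 with Smarca4.6, against 0.038 and 0.064 over all genes kept. Of those that did not pass, Sox1 was also higher on the reads given above. Zic1 had 4, 8 and 23 reads with Nons, with Smarca4.4 and with Smarca4.6. In the same order Fabp7 was lower at 6, 3 and 0 and Dcx at 9, 4 and 5. Neurog1 and Olig2 had 0 in all 4 libraries. These values stand beside Sox2 and Otx2, which were lower than Nons with both hairpins, and Pou3f1, which was higher. Germ cell markers summed to 1164 CPM at day 0 and to between 76.6 and 96.6 CPM at day 6, with Dazl at -6.62 and Kit at -4.74 between day 0 and Nons. Trophoblast markers summed to 99.8 CPM at day 0 and to between 1364 and 1734 CPM at day 6, led by Krt8 and Krt18 (a difference of 7.90 for the latter), keratin genes that mark simple epithelia in general. With the hairpins the medians of the germ cell list were 0.15 and -0.019 and those of the trophoblast list 0.092 and -0.22. Single genes of these lists differed by more and in both directions. Hand1 was at 1.59 and 0.77 and Tfap2c, which is in both lists, at 0.78 and 0.47, whereas Gata3 was at -0.17 and -0.84. Extraembryonic endoderm markers summed to 394 CPM at day 0 and to between 451 and 538 CPM at day 6. Their median against Nons was 0.43 with Smarca4.4 and 0.67 with Smarca4.6. Lama1 was at 1.60 and 0.79, Gata4 at 0.41 and 0.74, Sox17 at 0.43 and 0.73 and Pdgfra at 0.61 and 0.67. Col4a1 was at 0.53 and 0.26 and Dab2, higher in Nons than at day 0 by 3.59, at only 0.24 and 0.21. Sparc was at -0.071 and -0.32. Sox17 had 74, 103 and 98 reads with Nons, with Smarca4.4 and with Smarca4.6, and its interval for Smarca4.4, -0.011 to 0.88, included 0. Pdgfra had 44, 69 and 56 reads in the same order. Sox7, which did not pass, was more than 2-fold above Nons with both hairpins, on 17, 47 and 28 reads. Gata6, which did not pass either, lay on opposite sides of Nons, at 0.79 and -0.78, on 28, 50 and 13 reads. Mesenchymal and mesoderm markers summed to 122 CPM at day 0 and 1035, 825 and 737 CPM with Nons, with Smarca4.4 and with Smarca4.6, led by Tagln, which was lower than Nons with both hairpins (-0.42 and -0.66), as was Acta2 (-1.03 and -1.83). The median of this list against Nons was -0.42 with Smarca4.4 and -0.12 with Smarca4.6. Cd44 was at -0.50 and -0.12 and Col1a1 at 0.11 and -0.22. Vim was higher with both (0.49 and 0.74), and Twist1 was at 0.039 and 0.14. T, the mesoderm factor brachyury, had 18, 12 and 91 reads with Nons, with Smarca4.4 and with Smarca4.6. The part that other cell types have in the levels of the 10 genes was not tested.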

How the data were processed

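Total RNA of the 4 libraries was sequenced in pairs. The authors trimmed the reads with trim_galore and mapped them (the methods give hisat2 or tophat) to mm10, with positions that differ between FVB/NJ and CAST/EiJ masked, and quantified them over exons in SeqMonk with both alleles combined. The submitters' processing notes also name bcl2fastq. Versions were not given in the sources used here. The deposited values are log2 CPM, scaled by the authors to the total of each library.

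From these, the value of 1 read in each library was recovered: nonzero values of up to 1000 reads were whole multiples of it in 100% of cases (tolerance 0.1 read), and 0 reads had been written as 0.9 of it. Differences were taken between the deposited values, and intervals from the recovered reads. Since 1 molecule can give several reads, they cover counting error alone. Recovery and interval coverage were tested on simulated data.

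The members, the gene lists and the rules below were chosen with earlier results of these data known. Genes named are the 10 members, Smarca4, the 3 genes nearest in profile to Pou5f1, Sox2, Fgf5, Otx2 and Lin28b, up to 4 genes of each list with the largest difference between day 0 and Nons, and genes of a list past 2-fold with both hairpins. Dppa3, Prdm14, Tbx3 and Klf2 also fall under this rule but were not named above. Pim2, Neurog1, Olig2, Zic1, Dcx, Sox17, Pdgfra, Col4a1, Gata6, Vim, Col1a1 and Twist1 were chosen after their values were seen, as were the Y-linked genes and the 1.25-fold limit. Lists comprise formative and primed partners, core network partners, family paralogues, FGF pathway, LIN28 and let-7 pathway, and markers of neural, extraembryonic endoderm, trophoblast, germ, mesenchymal and embryonic stem cells. Alternatives were a mean level of at least 3 log2 CPM, no minimum, 1 CPM added before the log, differences centred on the autosomal median, and scaling without mitochondrial and the top 100 genes. Guide sequences came from the study's supplementary data. Software was matplotlib 3.10.9, pandas 2.3.3, scipy 1.17.1 and numpy 2.4.6 under Python 3.11.15.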

Additional observations from a re-analysis of the deposited data

Results flagged for a closer look

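In 2 of the 10 genes the hairpin libraries lay on opposite sides of Nons. The share of all genes kept that did the same was not counted, so whether this number is unusual was not tested. Pou5f1 had a difference of -0.38 in Smarca4.4 and of 0.10 in Smarca4.6. Sall4 had -0.13 in Smarca4.4 and 0.18 in Smarca4.6. With 1 library per hairpin the difference between the hairpins was not tested, and both values of each gene share the Nons library.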

How the results depend on the processing

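No paired analysis was possible because a group is a single library here, and the replicate number 3 is common to all 4. For the same reason no library could be left out. Of 200 values of single members under the alternatives, 184 stayed inside the counting interval of the reported value, 16 moved outside it and 0 changed sign. The medians of the members changed sign in 2 of 20 cases, both for Smarca4.6 against Nons: 0.024 became -0.038 when centred on the autosomal median and -0.016 when scaled without mitochondrial and the top 100 genes. In that last scaling 1 member, Sox2, was at least 2-fold lower in Nons than at day 0, in place of 3, since Fgf4 and Sall4 lay at the limit. A pseudocount of 1 CPM took Fgf5 from 8.82 to 5.99 in that comparison. Centring raised the members at least 1.25-fold lower in Smarca4.6 from 2 to 4. Counts over all genes depended on low values: at least 2-fold, 158 genes in Smarca4.4, 242 in Smarca4.6, 87 between the hairpins and 4235 between day 0 and Nons became 18, 38, 7 and 2230 with the stricter minimum, 2265, 2289, 2003 and 15359 with none, and 44, 76 and 18 with the pseudocount for the first 3. At least 1.25-fold, 2978, 4057, 2366 and 9281 genes became 1441, 2240, 1002 and 6238 with the stricter minimum and 6826, 15445, 13482 and 21357 with none. The depth of day 0 limits Fgf5, whose level there rests on 3 reads and so is at the floor.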
